A study of Mus musculus with 8 samples.

Results

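The mature neutrophil transcripts described here are those of 9 mouse genes: S100a8, S100a9, Retnlg, G0s2, Slpi, Hdc, Lrg1, Hp and Ccrl2. Their probe sets were taken by gene symbol from the array annotation, and no measured value entered that step. The genes themselves were chosen with earlier results of these data known. Each gene had 1 probe set among the 21789 that carried exactly 1 gene symbol, of 35557 in all. The probe sets were 10493831 for S100a8, 10499861 for S100a9, 10436100 for Retnlg, 10361246 for G0s2, 10489463 for Slpi, 10487238 for Hdc, 10451953 for Lrg1, 10581605 for Hp and 10597279 for Ccrl2.

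Tail tumors of 4 TAX-LUC mice, 2 of them IL-15-/- and 2 IL-15+/+, were sorted into CD16/32HI and CD16/32LO cells, and RNA of each population of each mouse went on 1 array (8 arrays). All 4 mice carried both transgenes (TAX+ LUC+): Tax, the oncoprotein of the human retrovirus HTLV-1, was under the human granzyme B promoter, which is active in cytotoxic lymphocytes, and firefly luciferase was under the viral LTR. The IL-15-/- allele came from a C57BL/6 strain and the transgenes from a C57BL/6×FVB background, the tumors arose spontaneously, and each genotype had 1 mouse aged 14 months (replicate 1) and 1 aged 12 months (replicate 2). The labels call the CD16/32HI cells malignant large granular lymphocytes and the CD16/32LO cells infiltrating immune cells, and the study describes the CD16/32LO cells as rich in neutrophils. CD16 and CD32 are Fc gamma receptors that macrophages and neutrophils carry as well as cytotoxic lymphocytes, and 1 antibody to both was the only gate.

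Neutrophils are short-lived phagocytes that build their granules in steps in the bone marrow, so that transcripts of the early granule proteins are lost as the cells mature. Mature and tissue-recruited neutrophils are instead rich in the cytosolic alarmins S100a8 and S100a9, in secreted proteins such as haptoglobin and resistin-like gamma, and in receptors for chemoattractants. C/EBP family factors and PU.1 are the best known transcription factors of the neutrophil lineage.

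Promoter windows of 300 bases around the start site (RefSeq, GRCm38.p6) were found for 8 of the 9 genes. They were searched on both strands for the C/EBP motif TTNCNNAA and for the PU.1 motif GAGGAA. The C/EBP motif was found in 4 of 8 member windows, and in 40.7% of 32841 windows in the same table. The PU.1 motif was found in 1 of 8, that of S100a8 (2 matches), and in 28.3% of all windows. The 4 windows with a C/EBP match are shown only to place the matches. Members without a match, such as G0s2 and Hdc, also varied with the other members across the arrays. S100a8 lies at chr3:90668821-90669120 on the plus strand, S100a9 at chr3:90695672-90695971 on the minus strand, Retnlg at chr16:48872358-48872657 on the plus strand and Slpi at chr2:164356458-164356757 on the minus strand. Each is given from 5′ to 3′ on its gene's strand, with C/EBP matches in capitals (none overlapped a PU.1 match).
S100a8: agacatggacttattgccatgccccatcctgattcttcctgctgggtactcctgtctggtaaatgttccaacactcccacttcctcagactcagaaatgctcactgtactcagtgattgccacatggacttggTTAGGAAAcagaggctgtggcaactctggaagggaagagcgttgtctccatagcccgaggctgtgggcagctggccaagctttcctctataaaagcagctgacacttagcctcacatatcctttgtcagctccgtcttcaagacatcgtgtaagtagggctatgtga
S100a9: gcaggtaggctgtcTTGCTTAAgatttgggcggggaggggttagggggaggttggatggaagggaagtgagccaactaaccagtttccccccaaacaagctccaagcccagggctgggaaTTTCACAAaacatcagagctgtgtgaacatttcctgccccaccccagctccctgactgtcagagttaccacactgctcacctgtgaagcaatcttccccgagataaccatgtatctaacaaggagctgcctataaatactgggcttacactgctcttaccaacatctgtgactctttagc
Retnlg: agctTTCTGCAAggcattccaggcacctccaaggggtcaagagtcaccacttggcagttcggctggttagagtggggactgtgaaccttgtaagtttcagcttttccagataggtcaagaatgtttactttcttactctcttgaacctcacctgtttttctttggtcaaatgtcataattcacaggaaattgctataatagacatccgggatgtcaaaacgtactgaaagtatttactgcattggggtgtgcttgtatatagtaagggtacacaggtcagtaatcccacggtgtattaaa
Slpi: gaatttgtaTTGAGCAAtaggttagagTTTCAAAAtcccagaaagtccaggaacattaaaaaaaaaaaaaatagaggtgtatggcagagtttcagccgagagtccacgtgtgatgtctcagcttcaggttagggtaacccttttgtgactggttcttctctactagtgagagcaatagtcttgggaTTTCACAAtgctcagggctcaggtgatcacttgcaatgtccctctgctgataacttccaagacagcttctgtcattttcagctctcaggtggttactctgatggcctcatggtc
A match is a string of letters in the window and not a measured binding site, and the members' share with a C/EBP match was close to that of all windows.

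Levels are RMA values, which the authors background-corrected, normalized and summarised per probe set on the log2 scale, so that a difference of 1 is 2-fold. A gene is called where limma gave an adjusted p under 0.05 over all 21789 probe sets tested (called here all genes). Array medians over all probe sets lay between 5.62 and 5.93 on the log2 scale. Exactly equal values to the last deposited digit showed 3 sets of arrays that had been normalized together (the 4 arrays of replicate 1, the 12-month IL-15+/+ arrays and the 12-month IL-15-/- arrays), so that genotype and normalization set cannot be told apart within replicate 2. Xist, made in female cells, was at 10.08 to 10.75 in IL-15-/- arrays and at 3.92 to 4.64 in IL-15+/+ arrays, so sex and genotype cannot be told apart either. The arrays of the 14-month IL-15-/- mouse went against their population labels: the neutrophil receptor Cxcr2 was at 12.62 in the array labelled CD16/32HI and at 9.93 in the array labelled CD16/32LO, whereas in the other 3 mice it was at 8.43 to 9.86 in CD16/32HI and at 12.21 to 12.53 in CD16/32LO cells. The labels were kept as deposited, and results that rest on this mouse are given with and without it. Of 13 T and NK cell genes measured, 3 (Cd2, the NK receptor Klrd1 at 6.26 to 7.87 and the granule gene Prf1 at 6.05 to 6.25) were above the median of all 4 CD16/32HI arrays, which are labelled large granular lymphocytes. Another 3 were below it in all 4 (Ncr1, Klrb1c and the granule gene Gzma at 4.01 to 5.46), and the other 7 were above it in some.

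In 3 of the 4 mice all 9 transcripts were lower in CD16/32HI cells than in their CD16/32LO counterparts, and in the 14-month IL-15-/- mouse all 9 were higher in the array labelled CD16/32HI. This sign pattern was shown by 19.8% of all genes tested. Across the members the median within-mouse difference, CD16/32HI minus CD16/32LO on the log2 scale, was 2.20 and -2.65 in the IL-15-/- mice of replicates 1 and 2, and -1.86 and -2.09 in the IL-15+/+ mice. The median over all genes tested was within 0.05 of 0 in each mouse. With the 8 arrays fitted as labelled, limma with the mouse as a block called 0 of 9 members between the populations (0% of all genes called), and 0 members were at an unadjusted p under 0.05, against 257 of all genes. Their differences ran between -2.19 for Retnlg and -0.41 for Ccrl2 (adjusted p = 0.92 to 0.921 from limma).

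**Figure D1:**
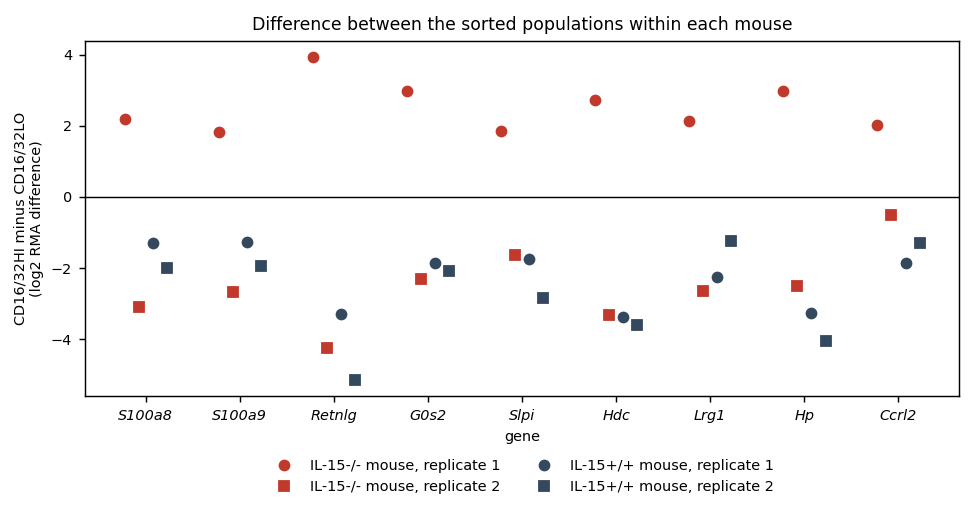
Difference between the sorted populations (CD16/32HI minus CD16/32LO, log2 RMA) for each of the 9 genes, with 1 point per mouse, red for IL-15-/- and blue for IL-15+/+, circles for 14-month (replicate 1) and squares for 12-month mice (replicate 2). The 14-month IL-15-/- mouse is above 0 for every gene (1.82 to 3.94), and the other 3 mice are below 0 for every gene (-5.15 to -0.52).

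Without the 14-month IL-15-/- mouse, 9 of 9 members were called lower in CD16/32HI cells, with a median difference of -2.09, against 7.62% of all genes called lower. That mouse was left out because its neutrophil genes, which vary with the members, went against the labels. The p-values without it are therefore conditional on the outcome and too small. In the 2 IL-15+/+ mice alone the test called 9 of 9, against 5.53% of all genes. This choice was made by genotype, but it also leaves out the 14-month IL-15-/- mouse. The differences were -4.23 to -1.58 with a median of -1.98 (adjusted p = 1.64e-05 to 0.00132 from limma). With 2 mice these p-values rest largely on the spread that limma shares over all genes. In bulk RNA of sorted cells, fewer neutrophils and less of a transcript per neutrophil cannot be told apart. The members are described below by role, with each pair of values in the order replicate 1, replicate 2. RMA values compare arrays for 1 probe set, so levels are not ranked between genes.

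S100a8 and S100a9 encode the calcium-binding proteins that pair as calprotectin, the main cytosolic protein of neutrophils and a ligand of the receptor TLR4. S100a8 was at 12.99 and 9.67 in the IL-15-/- arrays of CD16/32HI cells, against 11.49 and 10.85 in the IL-15+/+ arrays. In the CD16/32LO arrays it was at 10.78 and 12.77 in IL-15-/- tumors, against 12.78 and 12.85 in the IL-15+/+ arrays. The highest and the lowest S100a8 values of the series were thus both in the IL-15-/- arrays of CD16/32HI cells. With the 14-month IL-15-/- mouse left out, S100a8 had a log2 difference of -2.13 between CD16/32HI and CD16/32LO cells (SE 0.28, 4.38-fold lower, adjusted p = 0.00122 from limma), and in IL-15+/+ mice alone of -1.64 (adjusted p = 0.00101).

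S100a9 was at 13.01 and 10.26 in the IL-15-/- arrays of CD16/32HI cells, against 11.50 and 11.05 in the IL-15+/+ arrays. Its values in CD16/32LO cells were 11.19 and 12.93 in IL-15-/- tumors and 12.78 and 12.98 in IL-15+/+ tumors. The array order followed that of S100a8 at both ends, and in every mouse the difference of S100a9 between the populations was smaller in size than that of S100a8. Without the 14-month IL-15-/- mouse it fell by 1.96 in CD16/32HI cells (SE 0.23, 3.89-fold lower, adjusted p = 0.000716 from limma). Both genes were among the 6 members above every array's median in all 8 arrays, together with G0s2, Slpi, Hp and Ccrl2.

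Retnlg encodes resistin-like gamma, a secreted protein of rodent myeloid cells, and had the widest range of the 9 (5.59 on the log2 scale over the 8 arrays). It was at 11.17 and 5.95 in the IL-15-/- arrays of CD16/32HI cells, against 5.58 and 5.92 in the IL-15+/+ arrays. Its CD16/32LO values were 7.23 and 10.20 in IL-15-/- tumors, against 8.88 and 11.07 in the IL-15+/+ arrays. Its CD16/32HI values other than the 11.17 were within the range of the array medians or just beside it, so no fold is given between the populations. The Retnlg folds between genotypes in CD16/32HI cells, given below, rest on such values. Retnlg fell by 4.23 in CD16/32HI cells without the 14-month IL-15-/- mouse (SE 0.29, adjusted p = 4.65e-05 from limma).

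Hp encodes haptoglobin, which binds free hemoglobin and is made by the liver and stored in neutrophil granules. It was at 10.88 and 8.68 in the IL-15-/- arrays of CD16/32HI cells, against 7.58 and 6.17 in the IL-15+/+ arrays. In the CD16/32LO arrays it was at 7.91 and 11.18 in IL-15-/- tumors, against 10.85 and 10.21 in the IL-15+/+ arrays. Both IL-15-/- arrays of CD16/32HI cells were above both IL-15+/+ arrays, and in CD16/32LO cells the genotypes overlapped. The fall in CD16/32HI cells without the 14-month IL-15-/- mouse was 3.27 (SE 0.25, 9.65-fold lower, adjusted p = 7.72e-05 from limma).

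Lrg1 encodes a secreted leucine-rich glycoprotein that neutrophils store in granules and the liver releases in the acute phase. Its values in CD16/32HI cells were 8.82 and 5.46 in IL-15-/- tumors and 5.96 and 5.69 in IL-15+/+ tumors. Its CD16/32LO values were 6.68 and 8.11 in IL-15-/- tumors, against 8.22 and 6.94 in the IL-15+/+ arrays. The genotypes overlapped in both populations, and the difference between the populations was smallest in the 12-month IL-15+/+ mouse (-1.25). Its low values, too, were near the array medians. It fell by 2.05 in CD16/32HI cells without the 14-month IL-15-/- mouse (SE 0.24, adjusted p = 0.000643 from limma).

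Slpi encodes a secreted inhibitor of the neutrophil proteases elastase and cathepsin G. It was at 9.10 and 7.66 in the IL-15-/- arrays of CD16/32HI cells, against 6.71 and 6.36 in the IL-15+/+ arrays. In the CD16/32LO arrays it was at 7.25 and 9.29 in IL-15-/- tumors, against 8.46 and 9.21 in the IL-15+/+ arrays. As for Hp, the genotypes did not overlap in CD16/32HI cells and overlapped in CD16/32LO cells. Slpi fell by 2.07 in CD16/32HI cells without the 14-month IL-15-/- mouse (SE 0.23, adjusted p = 0.000501 from limma).

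Hdc encodes histidine decarboxylase, the enzyme that makes histamine, and is expressed by mast cells and basophils as well as by neutrophils. It was at 8.56 and 5.88 in the IL-15-/- arrays of CD16/32HI cells, against 6.18 and 5.35 in the IL-15+/+ arrays, and in CD16/32LO cells at 5.84 and 9.20 in IL-15-/- tumors, against 9.55 and 8.96 in the IL-15+/+ arrays. Among the 9 genes Hdc had the most even difference between the populations over the 3 other mice, -3.32 in the 12-month IL-15-/- mouse and -3.37 and -3.61 in the IL-15+/+ mice. It fell by 3.43 in CD16/32HI cells without the 14-month IL-15-/- mouse (SE 0.14, adjusted p = 1.18e-05 from limma), with CD16/32HI values close to the array medians. Of the other mast cell and basophil genes (10 of 10 measured), 8 were below the median of every array, Cpa3 and Fcer1a among them, and the growth factor receptor Kit was above it in all 8 (6.83 to 8.02). None of the 10 was called between the populations (0 of 10), with a median of 0.15 in all 4 mice and of 0.11 without the 14-month IL-15-/- mouse.

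G0s2 encodes an inhibitor of the triglyceride lipase ATGL. In CD16/32HI cells it was at 10.40 and 6.77 in IL-15-/- tumors, against 6.88 and 6.60 in the IL-15+/+ arrays. Its CD16/32LO values were 7.43 and 9.08 in IL-15-/- tumors, against 8.74 and 8.69 in the IL-15+/+ arrays. The array labelled CD16/32HI of the 14-month IL-15-/- mouse held the highest value by over 1. G0s2 fell by 2.09 in CD16/32HI cells without that mouse (SE 0.15, 4.25-fold lower, adjusted p = 5.85e-05 from limma). Adipocytes also express G0s2, and the adipocyte and liver genes (7 of 7 measured) had a mean between 4.72 and 5.07 in the 8 arrays, with 0 of 7 called in any comparison, with or without that mouse.

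Ccrl2 encodes a receptor of the chemokine receptor family that binds the chemoattractant chemerin without signaling. It was at 11.10 and 9.76 in the IL-15-/- arrays of CD16/32HI cells, against 8.50 and 8.63 in the IL-15+/+ arrays. In the CD16/32LO arrays it was at 9.07 and 10.28 in IL-15-/- tumors, against 10.37 and 9.93 in the IL-15+/+ arrays. Ccrl2 had the narrowest range over the arrays (2.60) and the smallest fall in CD16/32HI cells without the 14-month IL-15-/- mouse, by 1.23 (SE 0.23, 2.34-fold lower, adjusted p = 0.00685 from limma). In the 12-month IL-15-/- mouse the populations differed in Ccrl2 by -0.52, against -1.86 and -1.30 in the IL-15+/+ mice.

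**Figure D2:**
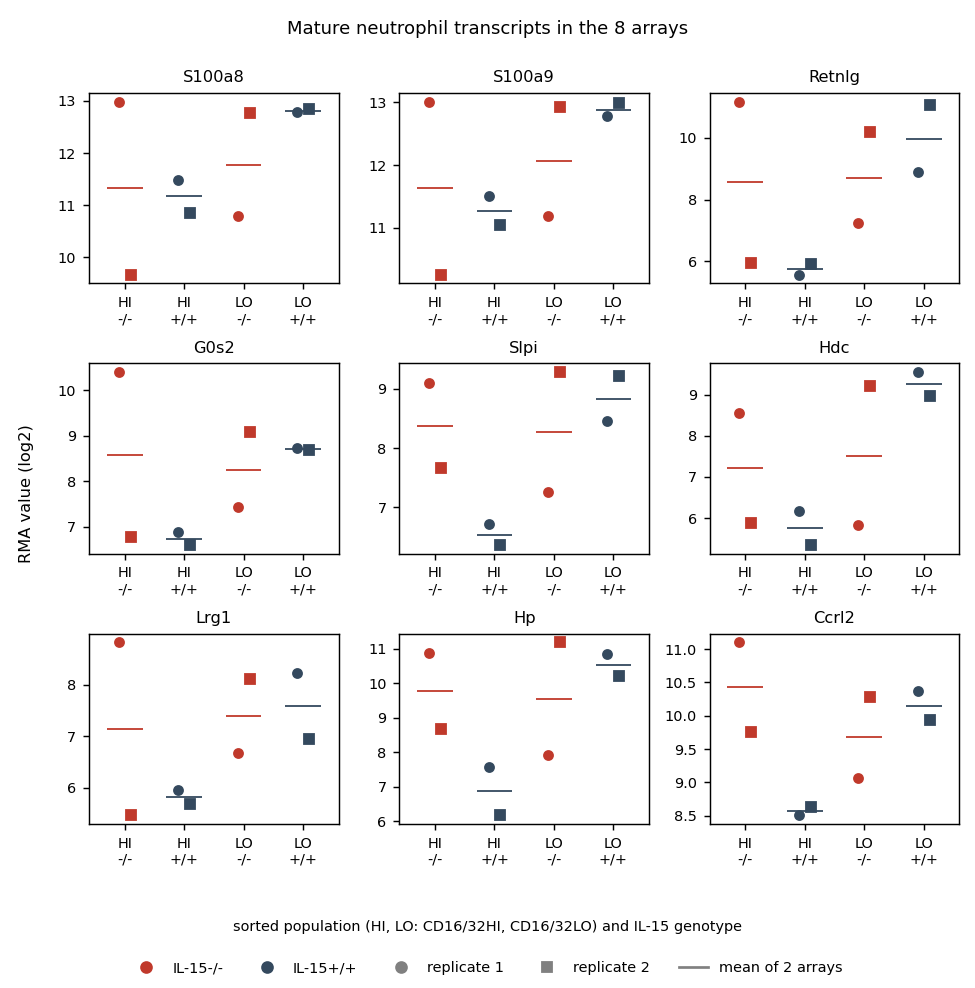
RMA value (log2) of each of the 9 genes in the 8 arrays, grouped by population (HI, LO) and IL-15 genotype, with circles for the 14-month mice, squares for the 12-month mice and a line at the mean of 2 arrays. For S100a8 the CD16/32HI IL-15-/- arrays (12.99 and 9.67) lie above and below both IL-15+/+ arrays, and for Hp and Ccrl2 both lie above.

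Between genotypes within CD16/32HI cells, all 9 members had a higher mean in IL-15-/- than in IL-15+/+ tumors, with a median difference of 1.84, against 0.09 over all genes. limma called 0 of 9 at an adjusted p under 0.05 (adjusted p = 0.854 to 0.988), against 0.0229% of all genes called, and 3 members (Slpi, Hp and Ccrl2) were at an unadjusted p under 0.05, as were 1070 of all genes. Hp was at 9.78 ± 1.56 in IL-15-/- tumors, against 6.87 ± 1.0 in IL-15+/+ tumors (SD, n = 2 each), or 2.91 (SE 1.03, adjusted p = 0.854 from limma). Retnlg was at 8.56 ± 3.69 in IL-15-/- tumors, against 5.75 ± 0.25 in IL-15+/+ tumors (SD, n = 2 each), a difference of 2.81 smaller than the spread of its IL-15-/- arrays. Which of these 2 differed more depended on the model. With the normalization set as a block the difference was 2.13 for Hp and 4.01 for Retnlg (adjusted p = 0.998 for both from limma). That block leaves the mean level of the genotypes to be compared only within replicate 1, which holds the mouse that went against its labels. Ccrl2 had 10.43 ± 0.95 and 8.57 ± 0.09 (IL-15-/- and IL-15+/+, SD, n = 2 each) and a difference of 1.86 (SE 0.49, adjusted p = 0.854). S100a8 and S100a9 differed least, by 0.16 (SE 0.96, 95% interval -2.03 to 2.34, adjusted p = 0.988 from limma) and 0.36 (SE 0.81, adjusted p = 0.957). Both IL-15-/- arrays lay above both IL-15+/+ arrays for 4 of 9 members (Retnlg, Slpi, Hp and Ccrl2), against 24.1% of all genes, and Retnlg did so by only 0.02 in replicate 2. By fold alone, the filter that the methods describe, 5 members passed 3-fold in CD16/32HI cells, all higher by their means in IL-15-/- tumors (Retnlg, G0s2, Slpi, Hp and Ccrl2), against 0.349% of all genes over 3-fold either way. Without the 14-month IL-15-/- mouse only Hp stayed over 3-fold (3.50-fold, 1 of 9 members, against 0.266% of all genes), with Ccrl2 at 2.28-fold, Slpi at 2.18-fold, Retnlg at 1.15-fold and G0s2 at 1.02-fold.

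The 2 replicate numbers gave different pictures of the genotypes. In replicate 1, all 9 members were higher in the array labelled CD16/32HI of the IL-15-/- mouse than in that of the IL-15+/+ mouse, by 1.50 for S100a8 to 5.59 for Retnlg (median 2.60, against -0.03 for all genes). In replicate 2 the median was 0.17, against 0.23 for all genes: Hp (2.51), Slpi (1.30) and Ccrl2 (1.13) were higher in the IL-15-/- array, S100a8 (-1.18) and S100a9 (-0.79) were lower, and the others lay between -0.23 and 0.53. With the 14-month IL-15-/- mouse left out the median member difference in CD16/32HI cells was 0.12, against 0.12 over all genes. limma then called 0 of 9 (0.0413% of all genes called), with S100a8 at -1.50 (adjusted p = 0.612), S100a9 at -1.02 (adjusted p = 0.869), Hp at 1.81 (adjusted p = 0.811) and Ccrl2 at 1.19 (adjusted p = 0.811). In the 12-month IL-15-/- mouse, S100a8 and S100a9 were thus below both IL-15+/+ arrays, while Hp, Slpi and Ccrl2 were above both.

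**Figure D3:**
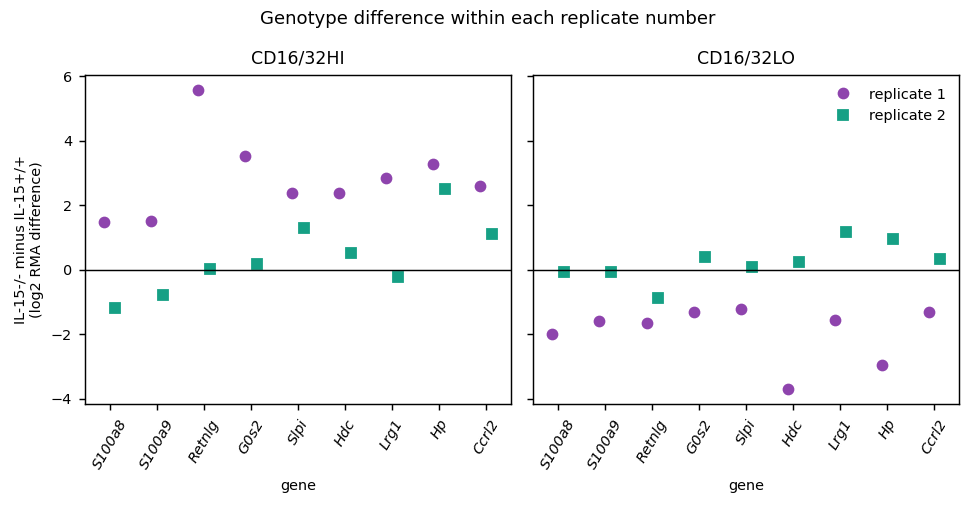
Genotype difference (IL-15-/- minus IL-15+/+, log2 RMA) for each of the 9 genes within replicate 1 (purple circles) and replicate 2 (green squares), for CD16/32HI cells on the left and CD16/32LO cells on the right. The circles lie above 0 on the left (1.50 to 5.59) and below 0 on the right (-3.71 to -1.21), and the squares lie nearer to 0.

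Within CD16/32LO cells all 9 members had a lower mean in IL-15-/- than in IL-15+/+ tumors (median -0.82, against 0.13 over all genes), and limma called 0 of 9 (adjusted p = 1 for each, 0.0367% of all genes called), with 0 members and 417 of all genes at an unadjusted p under 0.05. Hdc differed most, at 7.52 ± 2.38 in IL-15-/- tumors, against 9.25 ± 0.42 in IL-15+/+ tumors (SD, n = 2 each), a difference of -1.73. It was the 1 member over 3-fold lower by mean signal, against 0.367% of all genes over 3-fold either way, and without the 14-month IL-15-/- mouse 0 members passed, against 0.404% of all genes. S100a8 was the 1 member whose IL-15-/- values were both under those of IL-15+/+ tumors, against 4.7% of all genes, and 0 members had both above, against 24.2%. In replicate 2 the S100a8 difference was -0.07. Within replicate 1 the median difference was -1.59, against 0 for all genes, and within replicate 2 it was 0.24, against 0.25 for all genes. Without the 14-month IL-15-/- mouse the median was 0.22, 7 of 9 members were positive, and 0 of 9 were called (0.119% of all genes called).

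The genotype difference in CD16/32HI minus that in CD16/32LO cells had a median of 2.34 over the members, with 9 of 9 positive, and limma within mice called 0 of 9 (adjusted p = 0.878 to 0.898, 0% of all genes called). At an unadjusted p under 0.05 there were 0 members and 578 of all genes. With the 14-month IL-15-/- mouse left out the median was -0.02, against -0.01 over all genes. Without the 12-month IL-15-/- mouse, where that genotype rests on the mouse that goes against its labels, 9 of 9 were called higher, as were 6.37% of all genes. The values of this difference and of both genotype comparisons come from the same 8 arrays.

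The other mature neutrophil genes, 21 measured of a list of 25 and including the chemokine receptor Cxcr2, the G-CSF receptor Csf3r and the gelatinase Mmp9, were lower in CD16/32HI cells in each of the same 3 mice for 19 of 21. The exceptions were Padi4, higher in CD16/32HI cells of both IL-15+/+ mice (4.80 and 4.95, against 4.66 and 4.29 in CD16/32LO cells), and Msrb1, higher in those of the 14-month one (9.35, against 9.31). Their mean was 9.78 and 8.01 in the IL-15-/- arrays of CD16/32HI cells, against 7.66 and 7.44 in the IL-15+/+ arrays, and 8.05 and 9.56 in the IL-15-/- arrays of CD16/32LO cells, against 9.16 and 9.28 in the IL-15+/+ arrays. With all 4 mice 0 of 21 were called between the populations (median -0.72). Without the 14-month IL-15-/- mouse 19 of 21 were called lower in CD16/32HI cells (median -1.65, against 0.03 over all genes), among 7.62% of all genes. Cxcr2, by which that mouse was set apart, is itself in this list, so its differences are a description: -1.76 with all 4 mice and -3.24 without that mouse. For Csf3r they were -1.45 and -3.07, for Mmp9 -1.77 and -2.90, and for the activating receptor Trem3 -1.34 and -2.57. Ly6g, a surface antigen of mouse neutrophils, was at 7.42 and 4.53 in the IL-15-/- arrays of CD16/32HI cells, against 3.87 and 4.54 in the IL-15+/+ arrays, and at 3.72 and 6.78 in the IL-15-/- arrays of CD16/32LO cells, against 5.28 and 5.82 in the IL-15+/+ arrays. Between genotypes 0 of 21 were called in either population, with medians of 1.53 in CD16/32HI and -0.36 in CD16/32LO cells, and of 0.47 and 0.21 without that mouse. The 4 arrays highest in Ly6g were the 4 in which the members' mean was above 10. In the IL-15+/+ arrays of CD16/32LO cells, however, Ly6g was near or below the array medians.

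Of 12 neutrophil precursor granule genes, 0 were called between the populations with all 4 mice (median -0.45) and 0 between genotypes. Without the 14-month IL-15-/- mouse 5 were called lower in CD16/32HI cells (Ngp by -3.63, Lcn2 by -3.22, Chil3 by -1.45, Cebpe by -1.36 and Ltf by -1.34; list median -0.66), among the 7.62% of all genes called lower. Ngp, Lcn2 and Ltf belong to the secondary granules that form late in the marrow. The azurophil granule genes Mpo (4.84 to 6.19) and Elane (5.33 to 5.97), which mark promyelocytes, stayed near or below the array medians in all 8 arrays. The list's mean was between 5.60 and 6.99.

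Macrophage genes were high in the arrays where the members were low. Their mean (12 of 13 measured) was 8.05 and 10.05 in the IL-15-/- arrays of CD16/32HI cells, against 9.88 and 9.51 in the IL-15+/+ arrays, and 9.91 and 8.19 in the IL-15-/- arrays of CD16/32LO cells, against 8.27 and 8.0 in the IL-15+/+ arrays. With all 4 mice 0 of 12 were called between the populations (median 0.93). With the 14-month IL-15-/- mouse left out, 9 of 12 were called higher in CD16/32HI cells (median 2.03), against 6.67% of all genes called higher. Among them were the mannose receptor Mrc1 (2.70), the complement gene C1qa (2.67), Mertk (2.66) and Ms4a7 (2.66). C1qa was at 7.68 in the array labelled CD16/32HI of the 14-month IL-15-/- mouse and at 10.73 in its array labelled CD16/32LO. The part of macrophage RNA in the members' levels was not tested.

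**Figure D4:**
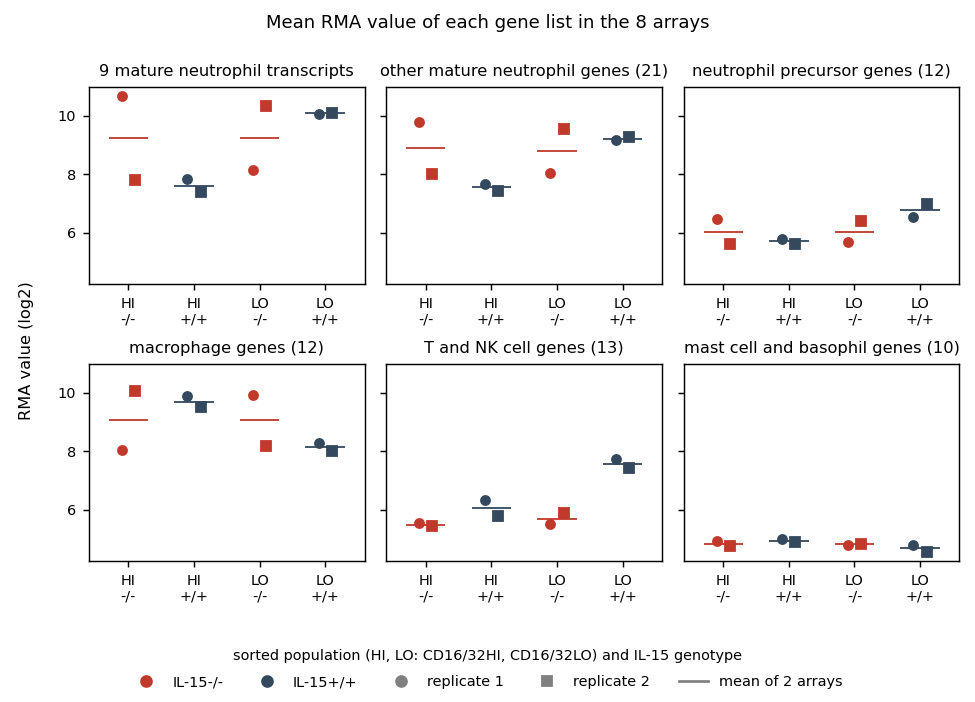
Mean RMA value (log2) of the 9 members and of 5 gene lists in the 8 arrays, grouped by population (HI, LO) and IL-15 genotype, with circles for the 14-month mice, squares for the 12-month mice and a line at the mean of 2 arrays. The members and the other mature neutrophil genes are high in the same 4 arrays, in which the macrophage genes are low (8.0 to 8.27).

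T and NK cell genes (13 of 14 measured) were low in 6 arrays (means of 5.42 to 6.34) and higher in the IL-15+/+ arrays of CD16/32LO cells (7.73 and 7.41). Within CD16/32LO cells 2 of 13 were called lower in IL-15-/- tumors (median -2.23), Gzma by -3.61 (adjusted p = 0.0301 from limma) and Cd8b1 by -2.45 (adjusted p = 0.0172), among the 0.0367% of all genes called there. Between the populations 0 of 13 were called with all 4 mice (median -0.69), and 8 of 13 were called lower in CD16/32HI cells without the 14-month IL-15-/- mouse (median -0.92), among the 7.62% of all genes called lower. Means of the endothelial genes (8 of 8 measured) were between 5.08 and 5.44 and those of the epidermal genes (10 of 10 measured) between 5.56 and 5.95, and between genotypes 0 of both were called. Pecam1, an endothelial adhesion molecule that neutrophils also carry, fell by 1.03 in CD16/32HI cells without the 14-month IL-15-/- mouse (adjusted p = 0.00973 from limma), with a difference of -0.68 in all 4 mice (adjusted p = 0.92). Another 8 genes encode calprotectin receptors or related S100 proteins. Among them the sialic acid receptor Cd33 fell by 1.20 in CD16/32HI cells without the 14-month IL-15-/- mouse (adjusted p = 0.00202 from limma). The related S100a10 rose by 1.28 (adjusted p = 0.0166 from limma) and S100a4 by 0.89 (adjusted p = 0.0236 from limma). With all 4 mice none of these was called, at -0.63 for Cd33, 0.38 for S100a10 and 0.24 for S100a4 (adjusted p = 0.92 to 0.929). The receptor genes Tlr4 (-0.48) and Ager (-0.15) and the related S100a6 (0.21) and S100a11 (-0.18) were not called without that mouse, and neither was Cd36.

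The members varied together over the arrays. The Pearson correlation of each with the mean of the other 8 lay between 0.87 for Ccrl2 and 0.95 for G0s2, over 8 arrays that share 4 mice and 3 normalization sets, and is given as a description. The members' mean was 10.67 and 7.79 in the IL-15-/- arrays of CD16/32HI cells, against 7.82 and 7.40 in the IL-15+/+ arrays, and 8.15 and 10.34 in the IL-15-/- arrays of CD16/32LO cells, against 10.07 and 10.09 in the IL-15+/+ arrays. In order of this mean, the array labelled CD16/32HI of the 14-month IL-15-/- mouse came first, the other 3 mice's CD16/32LO arrays next, that mouse's array labelled CD16/32LO after them, and the 3 remaining CD16/32HI arrays last (7.40 to 7.82). By group mean, CD16/32LO cells of IL-15+/+ tumors were highest for 8 of 9 members (Ccrl2 was the exception) and CD16/32HI cells of IL-15+/+ tumors lowest for 9 of 9. The IL-15-/- groups of the 2 populations differed by less than the SD of either for 9 of 9 members (SD 0.85 to 3.69). The IL-15+/+ groups differed by more than the SD of either for 9 of 9 (SD 0.04 to 1.55). The IL-15-/- means average 2 mice of opposite sign. Their median member difference, CD16/32HI minus CD16/32LO, was 2.20 in the 14-month mouse and -2.65 in the other. The IL-15-/- result therefore does not show that the populations were alike in those tumors. Without the 14-month IL-15-/- mouse these groups have no SD, and the share of all genes with this pattern was not counted. Of 869 other genes with a range of at least 2 on the log2 scale, those most like the members' mean were Gcnt2 (r = 0.998), Rac2 (0.995), Upp1 (0.993), Adam28 (0.993) and Siglecf (0.992), over the same 8 arrays.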

How the data were processed

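Total RNA of 8 sorted cell samples was hybridised to Affymetrix Gene Chip Whole Transcript 1.0ST arrays. The authors made the deposited log2 values per probe set with RMA in Affymetrix Expression Console, per the labels, and the genome build is not given in the sources used here. Probe sets were named through the platform annotation (21789 with 1 symbol, 1621 with several and 12147 with none). Groups came from the labels, and the number of arrays limits the precision.

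Members and gene lists were chosen with earlier results of these data known. The genotypes were compared within each population by limma 3.58.1 (R 4.3.3) on 4 group means over all 8 arrays, and the populations by limma with the mouse as a fixed block, since both were sorted from the same tumors, with p-values adjusted by Benjamini-Hochberg over 21789 probe sets and a threshold of 0.05. Fold changes are 2 to the power of the log2 difference. Both fits were run on simulated arrays with independent noise and changes planted only in the CD16/32HI IL-15-/- arrays. Recovery of a difference between the populations was not tested. The simulated noise was smaller than the members' spread in the IL-15-/- groups (SD 0.85 to 3.69). Alternatives were array centring, quantile normalization, all probe sets, a filter on dim probe sets, a gene's mean over its probe sets, other blocks, the methods' per-gene comparison with its 3-fold filter, arrays left out and mice of 1 genotype. The genes named were the 9 members, the 5 with the highest correlation with the members' mean, Xist, and examples from each list with large differences in a comparison. List genes without a probe set of their own were not used here. Deviations from the group means of CD16/32HI and CD16/32LO arrays of 1 mouse correlated at -0.46 in IL-15-/- and 0.36 in IL-15+/+ mice. Promoters came from a RefSeq table of GRCm38.p6 windows, read with Python 3.11.15, pandas 2.3.3 and matplotlib 3.10.9 for the figures.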

Additional observations from a re-analysis of the deposited data

How the results depend on the processing

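Array centring, quantile normalization, all probe sets, the filter on dim probe sets, the mean over a gene's probe sets and, for the genotypes, the mouse as a random block left 0 of 9 members called in each comparison they were run for and every member's direction as it was. Mice of 1 replicate number shared their age, and those of replicate 1 their normalization set, and the labels give no other tie (correlation of deviations 0.06 in CD16/32HI and 0.13 in CD16/32LO cells), and with the replicate block limma called 0 of 9 in both populations, with medians of 1.84 and -0.82. With no replicate block the population comparison and the difference between the populations also had 0 called (medians -1.05 and 2.34). With the normalization set as a block the medians were 1.79 in CD16/32HI and -0.61 in CD16/32LO cells, but Retnlg moved to 4.01 and -0.060 and Hp to 2.13 and -1.76. By the 3-fold filter alone, without the methods' per-gene comparison, 5 members passed in CD16/32HI and 1 in CD16/32LO cells. Leaving out the 14-month IL-15-/- mouse was a setting chosen after seeing the data. Only Hp then stayed over 3-fold in CD16/32HI cells (3.50-fold), and the members' log2 differences in CD16/32LO cells were -0.05 to 0.65. With the per-gene comparison none passed at adjusted p-values, and 0 members were at an unadjusted p under 0.05 (1045 and 778 of all genes).

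Single mice decided more. Between the populations 0 to 9 members were called when 1 array was left out: 9 without the array labelled CD16/32HI or that labelled CD16/32LO of the 14-month IL-15-/- mouse, 9 without both, 9 in IL-15+/+ mice only and 0 without any of the others. With the mouse as a block, leaving out 1 array takes its whole mouse out of the comparison. Leaving out 1 or both arrays of a mouse is therefore the same estimate, here and for the genotype difference between the populations. In IL-15-/- mice only, G0s2 (0.33), Slpi (0.11), Hp (0.23) and Ccrl2 (0.76) turned positive. Leaving out 1 array gave -1.23 to 0.070 for Ccrl2 (0.070 without either array of the 14-month IL-15+/+ mouse). For the difference between the populations it gave 0 to 9 calls, with 9 without either array of the 12-month IL-15-/- mouse, where the IL-15-/- side rests on the mouse that goes against its labels (6.37% of all genes were called higher there). The median in CD16/32HI cells was 0.12 to 2.80 with 1 array left out, and 0.12 without both arrays of the 14-month IL-15-/- mouse. Without both, S100a8 (-1.50), S100a9 (-1.02) and Lrg1 (-0.36) reversed in CD16/32HI cells, and leaving out 1 array gave -1.50 to 1.82 for S100a8 (-0.16 without the 12-month CD16/32HI IL-15+/+ array), -1.02 to 1.73 for S100a9 and -0.36 to 2.99 for Lrg1. In CD16/32LO cells S100a9 (0.045), Retnlg (0.22), G0s2 (0.36), Slpi (0.45), Lrg1 (0.53), Hp (0.65) and Ccrl2 (0.13) reversed without both. With 1 array left out there, the ranges were -1.69 to 0.045 for S100a9, -2.74 to 0.22 for Retnlg, -1.29 to 0.36 for G0s2, -1.58 to 0.45 for Slpi, -0.90 to 0.53 for Lrg1 (0.46 without the 14-month CD16/32LO IL-15+/+ array), -2.62 to 0.65 for Hp and -1.08 to 0.13 for Ccrl2. Where an arm is left with 1 array, that array is assumed to vary like the other groups. With 2 arrays a group, differences within the members' wide intervals were not detectable.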
